A study of Mus musculus with 2 samples.

Results

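Kinase, phosphatase and phospholipase genes of mouse spleen carried 390 assembled transcripts that lay wholly inside their introns. They fell in 82 host genes, of 4346 host genes and 12603 intronic transcripts among 16840 assembled transcripts in all. Members were all intronic transcripts (class code i of the assembler) whose host gene symbol begins with Ptpr, Ptpn, Prk, Pik3, Map2k to Map4k, Mapk, Camk, Dgk, Plc or Inpp followed by the letter or digit of a family member. The choice used names and no measured value. A host gene was described by the median, over its intronic transcripts, of log2((CIA FPKM + 0.1)/(healthy FPKM + 0.1)), where FPKM is fragments scaled by transcript length and by the library's total. The prefixes also admit genes whose products are not enzymes of these families, such as Prkrip1, whose product binds a kinase.

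The study compared spleen RNA of mice with collagen-induced arthritis (CIA), an autoimmune joint disease raised by immunizing mice against type II collagen, with spleen RNA of healthy mice left untreated. The titles place both libraries at day 40, and the treatment label of the CIA mice places their sacrifice at day 42 after the first immunization. Each group was 1 library, and the labels give neither the number of mice behind it nor their strain, sex or age. Total RNA was depleted of ribosomal RNA, and the values were deposited for long non-coding and assembled transcripts only. With 1 library per group no difference below has a replicate check, no test was possible, and every value compares 2 libraries. FPKM values hold no read counts, so the depth is unknown.

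Kinases of these families add phosphate to proteins or membrane lipids, and the phosphatases remove it. In lymphocytes, an engaged antigen receptor activates phospholipase C gamma, which splits a membrane lipid into inositol trisphosphate and diacylglycerol. The first releases calcium and so engages calmodulin-dependent kinases, the second activates protein kinase C and Ras, and diacylglycerol kinases end that signal. Phosphoinositide 3-kinase makes a lipid that inositol phosphatases such as SHIP1, the product of Inpp5d, take apart. RNA depleted of ribosomal RNA keeps unspliced precursors, so RNA inside an intron can belong to the host's own precursor or to a separate transcript, and the deposited values do not separate them.

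Intronic RNA of Prkcb and Prkcq, which encode the protein kinase C isozymes beta and theta of antigen receptor signalling in B and T cells, was more than 2-fold higher in the CIA library, and annotated lncRNAs inside both genes were also higher. The last 150 bases of the annotated lncRNA of highest ratio in each host are shown, as sequences of this intronic RNA, with the polyadenylation hexamer AATAAA in capitals where the transcript strand held it. Gm44664 ends at chr7:122363636-122363785 on the plus strand and Gm37520 at chr2:11190641-11190790 on the minus strand (GENCODE M21, GRCm38).
Gm44664: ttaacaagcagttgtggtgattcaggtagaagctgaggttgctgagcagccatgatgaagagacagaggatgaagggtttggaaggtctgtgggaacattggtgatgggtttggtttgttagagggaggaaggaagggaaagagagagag
Gm37520: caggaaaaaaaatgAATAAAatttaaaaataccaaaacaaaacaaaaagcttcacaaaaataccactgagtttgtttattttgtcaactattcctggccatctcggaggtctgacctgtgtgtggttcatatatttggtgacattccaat
The hexamer occurred once in the shown bases of Gm37520 and was not among those of Gm44664. In Gm37520 it lay near the first base shown, far from the annotated end, and its use was not tested. The hexamer was present in the last 150 bases of 13 of 45 annotated transcripts inside the member hosts (28.9%). Of the 3068 annotated transcripts that reached 0.5 FPKM in the CIA or the healthy library, 34.6% held it there.

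The promoters of Prkcb and Prkcq, and of Ptprk, a receptor tyrosine phosphatase gene whose intronic RNA was lower in the CIA library, are shown to set higher and lower hosts side by side. The value of Ptprk rests on 5 short transcripts of low level, and its most abundant intronic transcript was nearly equal in both libraries. Each runs from 250 bases before to 50 after the start of the gene in RefSeq (GRCm38.p6), on the plus strand, at chr7:122288875-122289174, chr2:11172132-11172431 and chr10:28074570-28074869. Capitals mark GGGCGG, the letters of a GC box, or its reverse complement CCGCCC.
Prkcb: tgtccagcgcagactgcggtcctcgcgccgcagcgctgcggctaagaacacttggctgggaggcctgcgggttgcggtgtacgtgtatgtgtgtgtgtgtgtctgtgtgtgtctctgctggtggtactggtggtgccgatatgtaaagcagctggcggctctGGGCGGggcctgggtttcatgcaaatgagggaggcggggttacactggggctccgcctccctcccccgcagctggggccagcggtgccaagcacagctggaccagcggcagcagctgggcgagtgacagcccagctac
Prkcq: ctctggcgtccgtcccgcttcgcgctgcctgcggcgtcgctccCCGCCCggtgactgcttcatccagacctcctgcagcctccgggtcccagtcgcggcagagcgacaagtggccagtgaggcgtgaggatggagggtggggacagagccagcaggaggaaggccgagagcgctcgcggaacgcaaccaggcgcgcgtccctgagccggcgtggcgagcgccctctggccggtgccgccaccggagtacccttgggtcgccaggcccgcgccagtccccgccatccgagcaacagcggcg
Ptprk: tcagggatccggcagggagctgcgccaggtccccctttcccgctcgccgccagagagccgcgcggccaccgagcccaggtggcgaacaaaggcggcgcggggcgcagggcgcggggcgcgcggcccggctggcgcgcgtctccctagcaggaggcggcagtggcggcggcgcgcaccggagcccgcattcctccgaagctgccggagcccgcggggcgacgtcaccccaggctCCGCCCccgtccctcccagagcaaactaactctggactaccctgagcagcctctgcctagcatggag
Each of the 3 promoters held 1 match to the GC box letters. None held the letters of the other 3 motifs searched on both strands, a TATA box, a site of ETS factors and a site of RUNX factors, so the search showed no difference between the higher hosts and the lower one. Of the 73 member hosts with a promoter entry, 53 held GGGCGG (72.6%), against 35.9% of all 27025 promoters. The TATA box letters TATAAA were in 1.37% of member promoters and 14.2% of all. The ETS letters CCGGAAG were in 6.85% of member promoters and 9.12% of all. The RUNX letters TGTGGT were in 5.48% of member promoters and 16.9% of all. Member promoters had a median GC content of 69% and 26 CpG dinucleotides, against 52.7% and 7 over all promoters. The median GC content was 65.3% in the 5 hosts 2-fold higher with an entry and 67% in the 9 hosts 2-fold lower. Promoters of the other hosts of intronic RNA were not set apart. The figures therefore cannot show a trait of these families beside other hosts. They describe the genes and not the libraries.

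Over the 82 hosts the median log2 ratio was 0.31, against 0.20 over the 4264 other hosts. Of the member hosts, 53 had a median above 0 and 29 below, and of the 4264 other hosts 2687 and 1572. In the CIA library 8 hosts (9.76%) were at least 2-fold higher, beside 11.7% of all host genes, and 9 (11.0%) were at least 2-fold lower, beside 10.2%. Uncentred, both shares lay near the background of all hosts. Over all intronic transcripts the median log2 ratio was 0.25. Measured from that common level the median of the member hosts was 0.07 and that of the other hosts -0.05. Counted from that level 5 member hosts were 2-fold higher (6.10%, against 8.37% of other hosts) and 15 were 2-fold lower (18.3%, against 12.7%). Among single transcripts, 67 of 390 (17.2%) were 2-fold higher, beside 15.6% of all intronic transcripts, and 39 (10%) were 2-fold lower, beside 10.3%. Less RNA per cell and fewer cells of a type cannot be told apart in such bulk libraries.

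The 8 higher hosts included Pik3r6 (median log2 ratio 2.59), Prkrip1 (1.51), Prkcq (1.49), Prkcb (1.27), Map2k5 (1.15), Camk4 (1.07) and Dgke (1.01). The 9 lower hosts were Pik3r3 (-3.22), Plcb1 (-2.30), Ptprk (-2.09), Dgkg (-2.07), Plce1 (-1.32), Plcb3 (-1.19), Prkd1 (-1.08), Dgki (-1.05) and Map3k4 (-1.01). Just inside 2-fold lay Prkce and Pik3ip1, both at 0.998, and Ptprb at -0.9997. The nearest called hosts on each side were Dgke and Map3k4.

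By role, the hosts named Prk had a median of 0.73 over 15 genes, with 4 at least 2-fold higher and 1 lower. The phosphoinositide 3-kinase genes had 0.64 over 8, with 1 in each direction. Of all hosts, 11.7% were 2-fold higher and 10.2% lower. The hosts named Camk had 0.39 over 6, the MAP kinase cascade 0.33 over 20 and the inositol phosphatases 0.30 over 3. The 6 Camk hosts include Camkmt (0.20 over 12 transcripts), whose product is not a calmodulin-dependent kinase. Phospholipase C stood at 0.11 over 10 hosts, the receptor tyrosine phosphatases at 0.07 over 8, the non-receptor tyrosine phosphatases at -0.00 over 6 and the diacylglycerol kinases at -0.10 over 6. Measured from the common level of 0.25, the last 4 families were all below 0, at -0.14, -0.18, -0.25 and -0.35, while the Prk and phosphoinositide 3-kinase genes were at 0.48 and 0.40. Single hosts of all families overlapped widely.

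**Figure D1:**
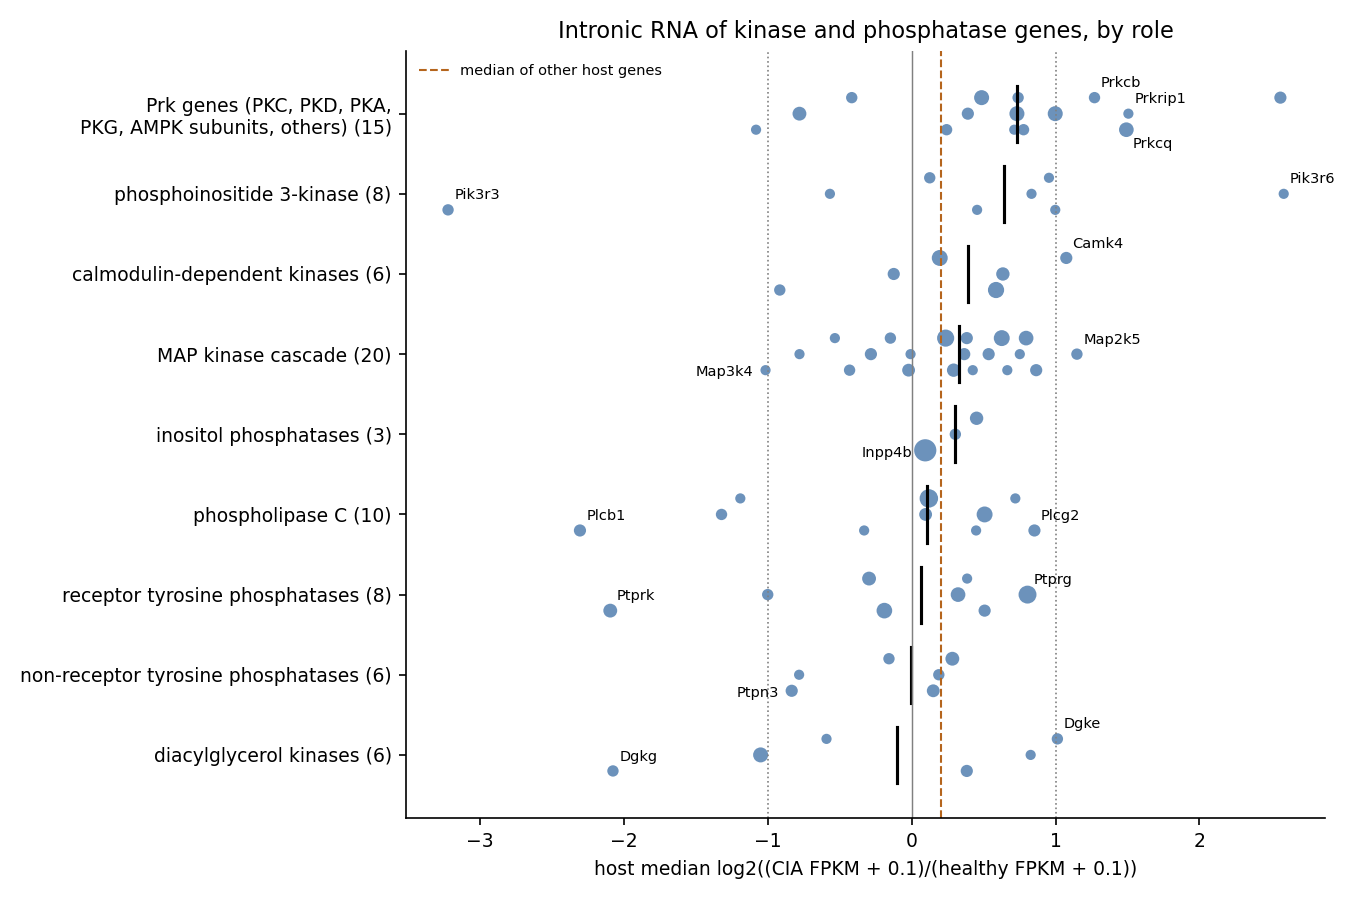
Median log2 ratio (CIA to healthy, 0.1 FPKM added to each) of each of the 82 host genes, by role, with the number of hosts in brackets; point area grows with the number of transcripts, black bars are role medians, dotted lines mark 2-fold. Prk genes lie furthest to the right with a median of 0.73, and hosts past 2-fold occur on both sides, from Pik3r3 at -3.22 to Pik3r6 at 2.59.

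Protein kinase C isozymes, a subfamily chosen after its values were seen, were a uniform set of hosts. All 6 hosts were above 0, with medians of 0.71 for Prkcd, 0.73 for Prkca, 0.78 for Prkcz, 0.998 for Prkce, 1.27 for Prkcb and 1.49 for Prkcq. Of their 31 transcripts, 30 were above 0 (96.8%), against 67.7% of all member transcripts and 63.4% of the transcripts of other hosts, and 15 were 2-fold higher with none 2-fold lower, beside 15.6% and 10.3% of all intronic transcripts. The exception lay in Prkca, with 4.13 FPKM in the library of CIA mice and 5.05 FPKM in that of healthy mice. These transcripts were longer than most, with a median of 2391 bases against 939 over all members. Among the 25 with a mean of at least 2 FPKM, 24 were above 0.

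Prkcq, the isozyme recruited to the T cell synapse, carried 8 intronic transcripts along its 129 kb on chromosome 2, 11172108 to 11301222. From the 5′ end their FPKM values in the CIA against the healthy library were 4.81 and 1.48, 3.45 and 1.16, 3.53 and 1.31, 2.94 and 0.852, 2.56 and 1.28, 2.29 and 0.299, 3.19 and 1.77, and 3.21 and 1.08. All 8 were higher in the CIA library, with log2 ratios from 0.81 to 2.58. Among hosts with at least 3 transcripts, every transcript was higher in 35% of member hosts and 26.7% of other hosts. The 8 share a host and are not replicates. In the authors' deposited table the lowest p of any member transcript, 0.0139 with a q of 0.227, belonged to the transcript of 14101 bases in Prkcq. Annotated lncRNAs, a readout that the member rule did not use, were higher in the CIA library too. Gm37520, on the opposite strand to Prkcq, stood at 2.97 against 1.05 FPKM, Gm36932 at 2.51 against 1.39 FPKM and Gm37766 at 1.14 against 0.479 FPKM.

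Prkcb, the isozyme that carries B cell receptor signals towards NF-kB, held 2 assembled transcripts within its 346 kb on chromosome 7, 122288751 to 122634402. They stood at 12.1 against 5.02 FPKM and at 7.61 against 3.06 FPKM, and both were assigned to the strand opposite to the gene. Inside the same gene 5 annotated lncRNAs lay on the gene's own strand. Gm45191 stood at 17.4 against 8.10 FPKM, Gm44745 at 12.7 against 5.80, Gm44664 at 12.2 against 4.72, Gm44663 at 5.36 against 2.08 and Gm44746 at 5.12 against 2.42. All 7 values lay between log2 ratios of 1.05 and 1.36, although their FPKM differed more than 3-fold from each other. Prkce, the epsilon isozyme, had 9 transcripts between log2 ratios of 0.33 and 1.24, the longest of 22965 bases at 6.84 against 3.37 FPKM. The annotated 2010106C02Rik inside Prkce stood at 2.40 against 0.728 FPKM.

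**Figure D2:**
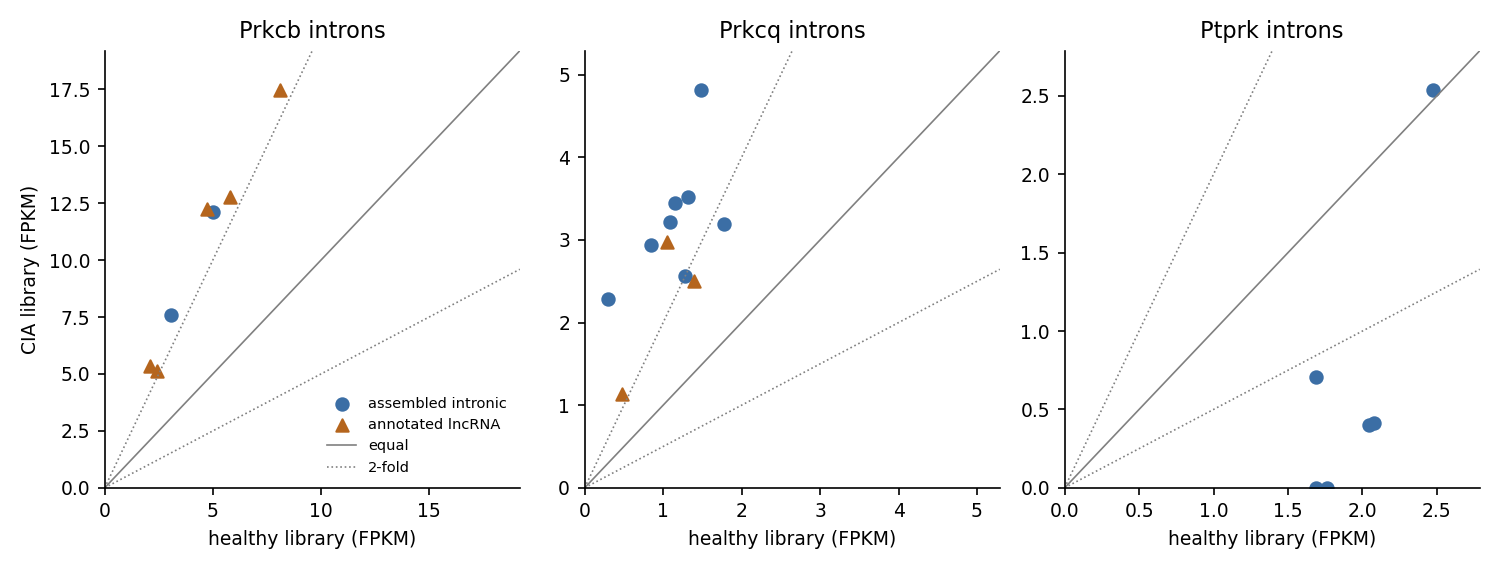
FPKM in the CIA library (vertical) against the healthy library (horizontal) for each intronic transcript of Prkcb, Prkcq and Ptprk; circles are assembled and triangles annotated transcripts, the solid line marks equal values and dotted lines 2-fold. The Prkcb and Prkcq points lie above the line of equal values, whereas 5 of 6 Ptprk points lie below the lower 2-fold line, 2 of them at the floor.

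Other Prk genes were less uniform. Prkar2a, a regulatory subunit of protein kinase A, held the member transcript of highest ratio, MSTRG.39566.1, at 2.13 against 0.0922 FPKM (log2 ratio 3.54), and another at 0.333 against 1.71 FPKM (-2.06). Its host median of 0.74 is therefore the midpoint of opposite values. Prkag2, the gamma subunit of the AMP-activated kinase, had 9 transcripts from -0.64 to 3.28, the highest being MSTRG.28161.1 at 1.83 against 0.0978 FPKM. Prkg1, a cyclic GMP-dependent kinase known from smooth muscle and platelets, stood at -0.78 over 6 transcripts, and Prkd1, protein kinase D1, at 0.770 against 1.74 FPKM in 1 transcript. Prkrip1 rested on 1 transcript of 212 bases, at 2.25 against 0.726 FPKM.

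Among the phosphoinositide 3-kinase genes, both extremes were regulatory subunits. Pik3r6, an adaptor of the gamma kinase in leukocytes, had 1 transcript of 282 bases at 2.04 against 0.257 FPKM. Its neighbour Pik3r5, the other adaptor of that kinase, lies 5.17 kb away on chromosome 11 and stood at 4.40 against 2.43 FPKM in a transcript of 4522 bases (log2 ratio 0.83). Pik3r3 had transcripts of 261 and 274 bases at 0.0102 against 2.42 FPKM and 0.505 against 2.20 FPKM, so both were lower in the CIA library. The catalytic genes ranged from -0.57 for Pik3c2a through 0.13 for Pik3ca to 0.95 for Pik3c2b. Pik3ip1, an inhibitor of the kinase in T cells, stood at 5.82 against 2.87 FPKM and Pik3ap1, a B cell adaptor, at 4.71 against 3.41 FPKM.

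Of the phospholipase C genes, both gamma enzymes, which act below antigen receptors, were above 0. Of the 3 beta enzymes, which act below G protein-coupled receptors, 2 were 2-fold lower. Of all 4346 hosts, 2740 were above 0 and 10.2% were 2-fold lower. Both subfamilies were set apart after their values were seen. Plcg2, the B cell form, had 3 transcripts at 7.01 against 4.01, 5.56 against 2.88 and 3.87 against 2.10 FPKM, with log2 ratios from 0.79 to 0.93. Plcg1, the T cell form, had 1 transcript at 4.02 against 2.92 FPKM. Plcb1 had 3 transcripts that went both ways, at 0.289 against 1.82, 1.87 against 0.682 and 0.00853 against 2.30 FPKM. Plcb3 rested on 1 transcript of 568 bases, at 0.766 against 1.87 FPKM, whereas Plcb4, with 24 transcripts, had a median of 0.12 with 14 above and 10 below 0. The beta subfamily, set apart after its values were seen, therefore had a host median of -1.19 over 3 genes but a transcript median of 0.07 over 28 transcripts. Plce1, the epsilon form, had transcripts at 1.42 against 1.67 and 0.326 against 2.19 FPKM. Plcl1 and Plcl2 encode related proteins without the catalytic activity and stood at 0.51 over 12 and 0.10 over 4 transcripts.

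Of the inositol phosphatase genes, Inpp5d held the member transcript of highest FPKM and Inpp4b more transcripts than any other member host. Inpp5d, the SHIP1 gene, held 3 of the 5 transcripts of highest mean FPKM. Its 5 transcripts, all assigned to the gene's strand, stood at 22.5 against 13.2, 12.6 against 9.17, 31.9 against 18.5, 11.0 against 8.35 and 16.5 against 14.8 FPKM. All were above 0, with log2 ratios from 0.16 to 0.78. Inpp4b, which removes a phosphate from the 3-kinase's breakdown product, held 55 transcripts along its 785 kb on chromosome 8. Their CIA values had a lowest, median and highest FPKM of 0.974, 3.84 and 11.7, and the healthy values 0.224, 3.20 and 10.2. The host median was 0.09, with 37 transcripts above and 18 below 0 and 4 at least 2-fold higher. The 49 transcripts nearer the 5′ end had a median of 0.07 and the other 6 a median of 0.60. Inpp5b stood at 0.30 over 2 transcripts.

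**Figure D3:**
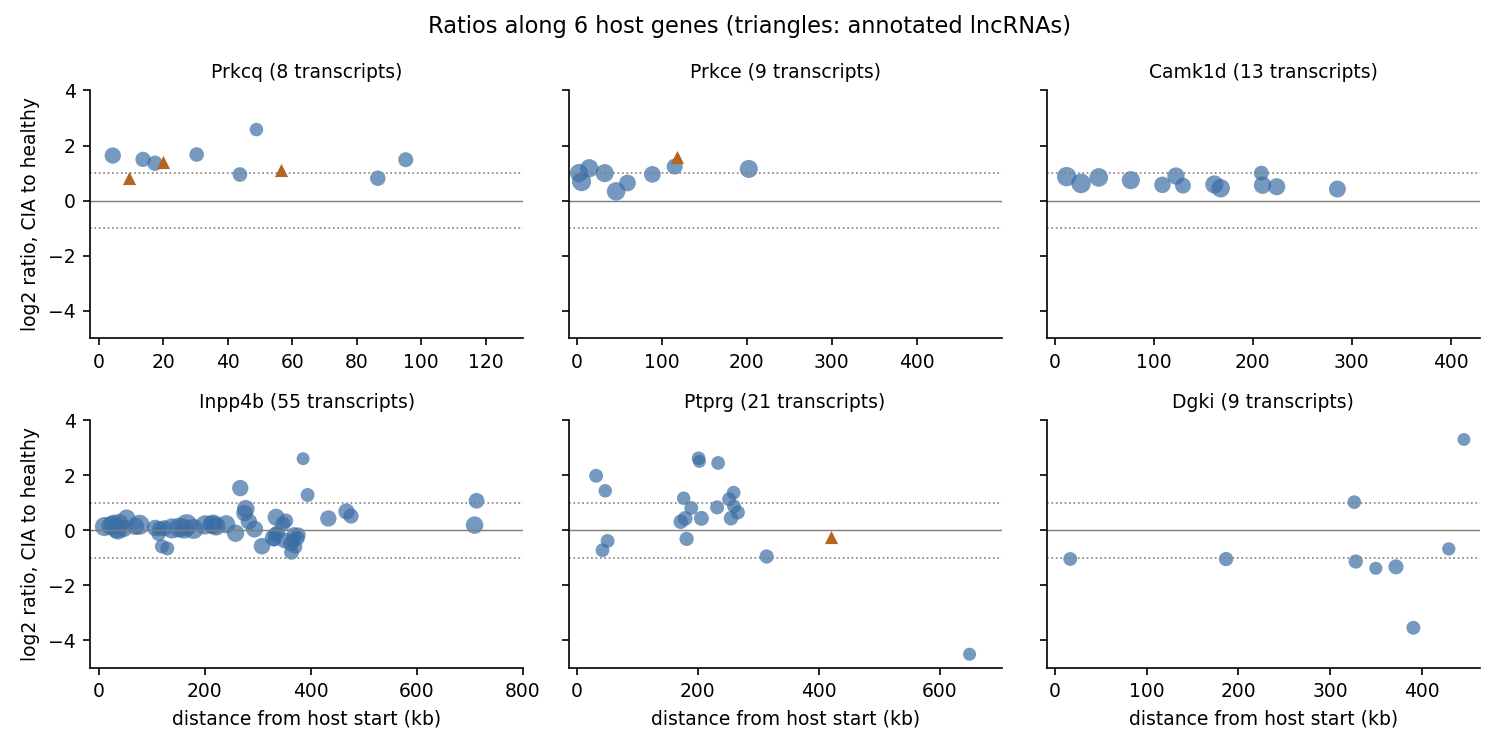
Log2 ratio of each intronic transcript against its distance in kb from the start of 6 host genes; point area grows with mean FPKM, triangles are annotated lncRNAs and dotted lines mark 2-fold. Prkcq, Prkce and Camk1d keep 1 direction along the gene, most Inpp4b points lie near 0, and Ptprg and Dgki hold values in both directions.

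Tyrosine phosphatases centred near 0. Ptprk had 6 transcripts of 206 to 328 bases along 523 kb on chromosome 10, 28074820 to 28597397. They stood at 0.705 against 1.69, 0.413 against 2.08, the floor against 1.76, 0.400 against 2.04, 2.53 against 2.48 and the floor against 1.69 FPKM, where the floor is the 0.0001 FPKM deposited in place of 0. Thus 5 of 6 were lower in the CIA library, and the most abundant was nearly equal in both. With a mean of at least 2 FPKM that transcript alone is left, and the host value turns from -2.09 to 0.03. Themis, a T cell development gene noticed as its neighbour after values were seen, lies 71.0 kb downstream and had a median of 1.43 over 14 intronic transcripts, the opposite direction. Ptprb, an endothelial phosphatase gene, stood at 0.932 against 1.80 and 0.760 against 1.77 FPKM. Ptprg had 21 transcripts with a median of 0.81 and a range from -4.51 to 2.61, where MSTRG.11348.1 was at the floor against 2.18 FPKM and MSTRG.11332.1 at 2.43 against 0.314 FPKM. Ptprj, the CD148 gene of leukocytes, was abundant, at 26.5 against 18.5, 15.4 against 11.9 and 12.6 against 8.81 FPKM. Ptpro and Ptpre stood at -0.30 over 6 and -0.19 over 11 transcripts. Of the non-receptor forms, Ptpn3 was lowest at -0.83, with all 3 transcripts below 0, Ptpn14 highest at 0.28, and Ptpn2, a brake on cytokine signalling, stood at 0.19.

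The MAP kinase cascade, which relays stress and growth signals in 3 tiers of kinases, held 20 hosts with 1 past 2-fold in each direction, a share of 5.00% each way beside 11.7% and 10.2% of all hosts. Map2k5, the activator of ERK5, had transcripts at 4.43 against 1.84 and 4.12 against 1.90 FPKM. Map3k4, which feeds the p38 and JNK branches, had 1 transcript at 1.26 against 2.66 FPKM. Map4k4 stood at 6.04 against 3.27, 6.78 against 3.63 and 3.12 against 2.49 FPKM. Map4k5 was even in both libraries, its 4 transcripts lying between -0.07 and 0.11, and Map2k6, an activator of p38, stood at 0.24 over 17 transcripts. All 12 transcripts of Map4k3 were above 0, with a host median of 0.63.

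Calmodulin-dependent kinase genes included the longest run of transcripts in 1 direction. Camk1d held 13 transcripts along 421 kb on chromosome 2, all above 0, from 0.42 to 0.999. Its CIA values had a lowest, median and highest FPKM of 2.75, 5.37 and 8.87, against 1.33, 3.47 and 5.60 in the healthy library, so the libraries overlapped in level although every transcript was higher in the CIA library. Camk4, a nuclear kinase of T cells, had transcripts at 2.45 against 1.11, 1.60 against 1.68 and 1.98 against 0.731 FPKM. Camk2d stood at 0.63 over 5 transcripts, and its 7 annotated lncRNAs lay between 0.17 and 1.23. Camk2g was lowest, at 1.15 against 2.71 and 1.18 against 1.94 FPKM.

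Diacylglycerol kinases split by gene. Dgkz, a T cell form, stood at 14.9 against 7.03, 5.20 against 4.05 and 4.68 against 3.56 FPKM. Dgke was at 2.30 against 1.32 and 2.09 against 0.813 FPKM. Dgkg had transcripts at 0.167 against 2.05 and 0.806 against 1.90 FPKM. Dgki, best known from neurons, had 9 transcripts of 205 to 647 bases, of which 7 were below 0. They ran from -3.54, at 0.152 against 2.83 FPKM, to 3.30 for MSTRG.30958.1, at 1.93 against 0.106 FPKM.

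Every member transcript reached at least 1.48 FPKM in 1 of the libraries. A transcript near 0 in the other library therefore has a mean under 2 FPKM by construction, and the shares below by mean FPKM describe the table and show no effect of abundance. All 9 lower hosts and 5 of the 8 higher ones had a mean under 2 FPKM, and the transcripts of the lower hosts measured 205 to 700 bases. Under 2 FPKM the standard deviation of the log2 ratio over 182 member transcripts was 1.43 and 45.6% lay past 2-fold. It was 0.57 over 113 transcripts at 2 to 4 FPKM (12.4% past 2-fold), 0.45 over 78 at 4 to 8 FPKM (8.97%) and 0.37 over 17 above that (11.8%). Other hosts had 44.2%, 9.44%, 7.76% and 10.4% past 2-fold in the same classes. The same construction bears on the next count, since a bound on the mean takes out transcripts that are low in 1 library. With a mean of at least 2 FPKM, a setting chosen after seeing the data, 60 member hosts were left. Of these, Prkcq, Prkcb and Map2k5 were 2-fold higher (5%, against 5.11% of other hosts). Dgki was 2-fold lower (1.67%, against 1.91%). Its value then rests on MSTRG.30961.1 alone, of 205 bases, at 1.20 against 3.16 FPKM.

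Direction also went with length, in classes chosen after seeing the data. Of 127 member transcripts under 500 bases 48.0% were above 0, with a median of -0.01. Of 128 between 500 and 2000 bases it was 64.8%, with a median of 0.32, and of 135 of at least 2000 bases 88.9%, with a median of 0.41, 13 of them 2-fold higher and none 2-fold lower. Other hosts gave 48.8%, 66.5% and 79.2% above 0. Of their 3170 transcripts of at least 2000 bases, 224 were 2-fold higher and 42 were 2-fold lower. The part of length in the values of single hosts was not tested.

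**Figure D4:**
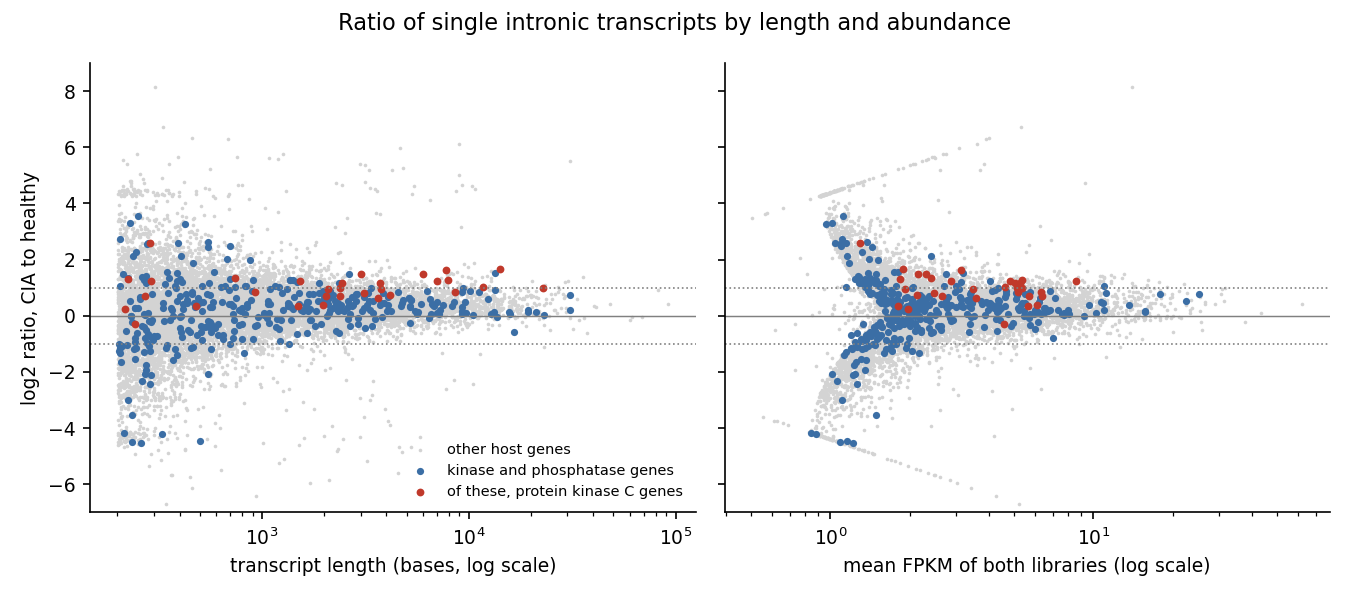
Log2 ratio (CIA to healthy) of single intronic transcripts against their length (left) and the mean FPKM of both libraries (right), both on log scales; grey points are transcripts of other hosts with a mean of at least 0.5 FPKM, blue points members and red points members in protein kinase C genes, dotted lines mark 2-fold. The spread narrows with length, its narrowing with mean FPKM follows in part from the level of at least 1.48 FPKM that every member reached in 1 library, and 30 of 31 protein kinase C points lie above 0.

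Where a host held at least 3 transcripts, their agreement could be read. Of 40 such member hosts, 14 had every transcript above 0 (35%), 2 every transcript below 0 (5.00%) and 24 both directions, against 26.7% and 6.64% of 1295 other hosts. The median range within a host was 1.43 on the log2 scale, against 1.42 in other hosts. Map3k14, Plcg2 and Ptprj were the most even above 0, with ranges of 0.07, 0.13 and 0.14. Map3k10 and Ptpn3 were the hosts wholly below 0. Transcripts of a host lie in the same gene, were measured in the same libraries and are not replicates.

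In structure the members resembled other intronic RNA. Single-exon transcripts made up 92.8% in both sets, and 74.6% of members carried no strand, against 75.1% of others. Of the 99 stranded members 47 were on the host's strand and 52 opposite. The members were more numerous per host, 4.76 against 2.86, and 72.6% of them lay nearer the host's 5′ than its 3′ end, against 61.1%. Host length, from 7.14 kb to 1223 kb with a median of 106 kb, and the number of transcripts followed each other over the 82 hosts, with a Pearson r of 0.59 on log scales, given as a description. The 5 hosts with most transcripts, Inpp4b, Plcb4, Ptprg, Map2k6 and Camk1d, held 130 of 390 (33.3%).

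Annotated lncRNAs inside the member hosts gave a readout from the other deposited table, of the same 2 libraries. There were 45 that reached 0.5 FPKM in 1 or both libraries, in 21 hosts, with a median log2 ratio of 0.42 and 38 above 0. Of these, 13 were 2-fold higher (28.9%), beside 15.7% of all annotated transcripts, and 2 were 2-fold lower (4.44%), beside 6.13%. Inside other hosts 12.7% of 1091 were higher and 2.57% lower. Prkcb and Prkcq supplied 7 of the 13, all 5 in Prkcb and Gm37520 and Gm37766 in Prkcq. The annotated and assembled medians had the same sign in 16 of 21 hosts, but most medians of either kind were above 0, 19 annotated and 16 assembled. Across these 21 hosts the medians followed each other weakly, with a Pearson r of 0.19, given as a description. They went apart in Ptpro, where Gm44258 stood at 2.25 and the host at -0.30, and in Ptprg, where Gm3848 stood at -0.24. In Map3k13, 4 annotated transcripts ran from -2.63 to 2.78. Spliced or overlapping assembled transcripts of matching genes (class codes j, o and x) numbered 12, with a median of 0.45 against 0.23 over 1492 of other genes. A Prkca transcript of this kind stood at 3.24 against 1.35 FPKM, one of Pik3ip1 at 3.08 against 1.01, one of Map3k13 at 4.93 against 0.886, and one of Ptprb at the floor against 1.74 FPKM.

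Genes known for a blood lineage were compared as lists, whose genes are not restricted to that lineage. Of all 4346 host genes, 2740 were above 0, 11.7% were 2-fold higher and 10.2% 2-fold lower. All 8 hosts listed for T cells were above 0, with a median of 0.48 and 2 of them 2-fold higher, Prkcq and Camk4. All 7 listed for B cells were above 0, with a median of 0.51 and Prkcb 2-fold higher. That median is the value of Ptprj, described above as a gene of leukocytes. The 6 listed for myeloid cells and platelets had a median of -0.03, with 3 on each side, Pik3r6 2-fold higher and Dgkg 2-fold lower. From the common level of 0.25 these medians were 0.23, 0.26 and -0.28. Markers of the lymphocyte types were higher beside them. Of 12 T cell markers 5 were hosts, Lef1, Bcl11b, Themis, Cd247 and Satb1, all above 0, with a median of 1.43 and a summed level of 151.5 against 65.6 FPKM. Of 10 B cell markers 5 were hosts, all above 0, with a median of 0.83 and a sum of 337.2 against 212.3 FPKM. Of 10 myeloid markers Mertk alone was a host (0.21, 13.1 against 10.1 FPKM), of 8 erythroid markers Ank1 (-0.34, 31.8 against 36.2 FPKM), and of 5 stromal and endothelial markers Pecam1 (1.08, 64.3 against 32.8 FPKM). None of the platelet, natural killer or proliferation markers was a host, nor were Cd3e, Cd4, Cd8a and Cd28. The part of the lymphocyte share in the values of Prkcq, Prkcb, Camk4 and Plcg2 was not tested.

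Partners of the same pathways were listed as hosts too, and their counts stand beside 11.7% of all hosts 2-fold higher and 10.2% lower. Antigen receptor kinases and adaptors, 16 hosts of 28 listed, had a median of 0.65 with 3 2-fold higher and none lower. Zap70, the kinase of the T cell receptor, stood highest at 1.72, with 3 transcripts that summed to 6.81 against 3.38 FPKM. Themis followed at 1.43, and Fyb, an adhesion adaptor, was lowest at -0.35. Themis and Bank1 of this list are also among the T and B cell markers above. The NF-kB arm below protein kinase C held 4 hosts of 17, with a median of 0.77 and none past 2-fold. Traf3 stood at 0.98 and Nfkbiz at -0.25. Calcium and calcineurin genes, 10 of 18, had a median of 0.31 with 1 host past 2-fold in each direction. Ppp3ca and Ppp3cc of this list also count in that of the serine/threonine phosphatases below. Orai2, a calcium channel gene, stood at 1.75, Ppp3ca, the calcineurin catalytic subunit, at 0.62 and Nfatc3 at -2.00, although the 2 Nfatc3 transcripts summed to 7.23 against 7.04 FPKM. Ras, Raf and exchange factors, 7 of 23, had a median of 0.04 with none higher and 1 lower. Rasgrp3 stood at 0.87, Nf1, a brake on Ras, at 0.71 and Rapgef1 at -1.18, although its 2 transcripts summed to 8.50 against 6.25 FPKM. Akt, mTOR and phosphoinositide partners, 12 of 25, had a median of 0.06 and none past 2-fold, with Foxo1 at 0.88 and Tsc1 at -0.39. Dual-specificity and serine/threonine phosphatases, 28 hosts, had a median of 0.33 with 2 higher, Ppp1r16a at 1.94 and the pseudogene Ppp4r1l-ps at 1.22, and none lower, Ppp1r9a being lowest at -0.60. From the common level of 0.25 the Ras and Akt lists turned to -0.21 and -0.19, whereas the antigen receptor and NF-kB lists stayed at 0.40 and 0.52.

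The authors' deposited table gave 6 of the 390 member transcripts a p below 0.05 (1.54%, against 1.11% of other intronic transcripts) and none a q below 0.05. Of these 6, the authors' deposited table placed 4 in Prkcq, 1 in Inpp4b and 1 in Map2k1. The authors' deposited table marked 34 members as significant, of which 32 had the higher and 2 the lower value in CIA, and the highest p among them was 0.206. That is 8.72% of members, beside 5.26% of other intronic transcripts in the authors' deposited table, where 581 of the 643 marked had the higher value in CIA. With 2 libraries behind them, these p-values carry no variation among mice.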

How the data were processed

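Per the file headers, the authors deposited FPKM values per transcript for 1 CIA and 1 healthy library, with 0.0001 in place of 0, beside a ratio (fold), its log2, a p-value and a q-value, which are only quoted here. StringTie is named in the submitters' processing notes. The aligner, the build, the strand setting and the test were not given in the sources used here. All 390 member transcripts lay inside their host in GENCODE M21, and coordinates are therefore those of GRCm38. The column named model was read as CIA and that named control as healthy. A pair of damaged cells of annotated transcripts was resolved from the deposited ratio.

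The log2 ratio used a pseudocount of 0.1 FPKM, which understates ratios of low transcripts, no filter of its own for intronic transcripts (as deposited, each member reached at least 1.48 FPKM in 1 library), and a 2-fold size rule in place of a test. Annotated transcripts needed 0.5 FPKM in either library. Named were the 10 hosts of highest and lowest median with at least 2 transcripts, the 5 hosts with most transcripts, the 5 transcripts highest, lowest and most abundant, each role's extremes, the extremes of 6 pathway lists and all hosts of 3 lineage lists. Hosts past 2-fold, named examples of other readouts, subfamilies, neighbours and classes of length or abundance were chosen after values were seen. Some genes that this rule names are not reported here. The members and lists were chosen with earlier results of these data known. Alternatives were other pseudocounts, filters, centring, summing, single-exon transcripts, hosts with at least 3 transcripts, a 4-fold rule and leaving out matched genes that are no enzyme. Sequences were copied from GENCODE transcripts and RefSeq promoters (GRCm38.p6, 73 of 82 symbols matched), and intron sequence, GC and repeat content were not analysed here. Scripts were tested on simulated data. Python 3.11.15, numpy 2.4.6, pandas 2.3.3 and matplotlib 3.10.9 were used. Reads of a host and an antisense transcript cannot be told apart without a strand setting.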

Additional observations from a re-analysis of the deposited data

How the results depend on the processing

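No paired analysis was possible because only 1 library stands for each condition. The settings of a mean of at least 2 FPKM and of FPKM times length were added after seeing the data. The count of 8 higher hosts became 4 with a pseudocount of 1 FPKM, 5 with centring on the median of all intronic transcripts, 3 with at least 3 transcripts per host, 2 under a 4-fold rule, 3 with a mean of at least 2 FPKM and 5 with FPKM times length. The count of 9 lower hosts became, in the same order without the last, 4, 15, 3, 4 and 1. As shares, the lower hosts were 4.88%, 18.3%, 7.5%, 4.88% and 1.67% of member hosts, against 4.88%, 12.7%, 3.40%, 4.13% and 1.91% of other hosts. The higher hosts, with FPKM times length last, were 4.88%, 6.10%, 7.5%, 2.44%, 5% and 6.10%, against 5.46%, 8.37%, 7.34%, 3.71%, 5.11% and 10.8%. With a pseudocount of 0.01 FPKM the higher hosts rose to 13.4% of members, against 12.5% of other hosts. The lower hosts were then 12.2%, against 10.9%. Centring shifts all transcripts alike, and the stricter settings keep fewer hosts or a larger fold by construction. The median of the member hosts ran from 0.07, centred, to 0.38, with a mean of at least 2 FPKM, and its difference from other hosts from 0.09 to 0.15 over all settings. Ptprk turned from -2.09 to 0.032 with a mean of at least 2 FPKM, where 1 transcript is left, since a bound on the mean takes out transcripts near 0 in 1 library. Plcb1 stood at -1.11 from summed FPKM and Pik3r3 between -4.50 and -1.42 over pseudocounts of 0.01 and 1 FPKM. Of 389 values of 38 named hosts under the alternatives, 373 lay within 1.5-fold of the main value. The cause of the other 16 was not tested. Part of that agreement was fixed in advance. Filters of 0.5 and 1 FPKM keep every member transcript. Leaving out genes that are no enzyme, or hosts with fewer than 3 transcripts, does not alter the value of a host that stays. Centring moves each host by the same 0.25, which is less than 1.5-fold.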
